A study of Homo sapiens with 12 samples.

Results

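The RNA levels of 41 genes of the cell division cycle were followed in 4 sublines of HMC-1, a human mast cell leukaemia line that carries activating changes in the receptor tyrosine kinase KIT. The genes were chosen by symbol, from what they are known to do. They comprised 22 genes of DNA replication (the S phase set) and 19 genes of mitosis (the G2/M set), out of 58381 genes in the tables, and all 41 passed the filter on low counts that left 15944 genes for testing. HMC-1.1 cells carry V560G in the juxtamembrane part of KIT, and HMC-1.2 cells carry V560G together with D816V in the kinase domain. HMC-1.3 cells were made from HMC-1.2 by CRISPR/Cas9 repair of V560G, so that D816V alone remains, and 2 subclones of it, clone 1 and clone 2, were measured. Each is 1 clone, so that an effect of the repair and a trait of the clone cannot be told apart within it. The labels give no treatment for any group, and each group had 3 libraries of polyadenylated RNA from parallel wells, so that the p-values below describe the spread between these wells, which may be technical.

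Cells copy their DNA in S phase. MCM helicase complexes are loaded at origins in G1 by CDC6 and CDT1, cyclin E with its kinase partner starts replication, and polymerases held by the sliding clamp PCNA then extend the new strands. Mitosis is driven by CDK1 with cyclins A and B, by the Polo and Aurora kinases, and by the anaphase-promoting complex with CDC20, which ends it. Replication genes are known as targets of E2F factors, and mitotic genes as targets of the MuvB complex with B-MYB and FOXM1, which acts through the CHR element and neighbouring CCAAT boxes, and their RNA in a culture reflects both the share of cells in each phase and the RNA made per cell. These 2 cannot be told apart in bulk RNA.

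In promoter sequences from RefSeq (GRCh38.p14, 250 bases before to 50 after the annotated start) the sets differed in their motifs. A table entry was found for 19 of the 22 S phase genes and 16 of the 19 G2/M genes, with none used for MCM4, MCM5, CCNE2, AURKA, TPX2 and UBE2C. Both strands were searched for the E2F site (TTTCCCGC, TTTCGCGC, TTTGCCGC or TTTGGCGC), the CHR element (as TTTGAA in one form, as TTTAAA in another and as TTCGAA in the last) and the CCAAT box, spelled as its name. The latter forms of the CHR element read the same on both strands, and matches of different motifs were allowed to overlap. An E2F site stood in 12 of 19 S phase promoters and 1 of 16 G2/M promoters, against 3.31% of all 35116 promoters in the table. The CHR element stood in 5 of 19 S phase and 14 of 16 G2/M promoters, against 25.1% of all promoters. A CCAAT box was present in 13 of 19 and 14 of 16, against 34.6% of all promoters, and the CHR element together with a CCAAT box in 3 of 19 and 12 of 16, against 9.7%. The match of letters is a description of these windows and says nothing about the binding of a factor in these cells.

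The stretches below show the 2 kinds of promoter, with matches in capitals, for 2 S phase genes with repeated E2F sites, for RRM2, the S phase gene with the largest change, and for 4 G2/M genes with CHR elements and CCAAT boxes. In MKI67 the second CHR element runs into a CCAAT box in reverse, and the 30 bases of RRM2 hold a CHR match and lie within an exon of a longer annotated transcript of that gene. The RRM2 window held no E2F match, unlike most S phase promoters, and its 3 CCAAT boxes lie before the stretch shown. The only E2F match among the G2/M promoters was in CDK1, downstream of its start and outside the stretch shown.

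MCM6, chr2:135876519-135876603, minus strand: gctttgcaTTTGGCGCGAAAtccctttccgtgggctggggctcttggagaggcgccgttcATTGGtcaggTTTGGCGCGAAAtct

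E2F1, chr20:33686395-33686505, minus strand: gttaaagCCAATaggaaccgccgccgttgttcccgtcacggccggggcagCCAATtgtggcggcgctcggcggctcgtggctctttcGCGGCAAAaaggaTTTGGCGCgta

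RRM2, chr2:10122694-10122723, plus strand: gcgcggcgcgggagaTTTAAAggctgctgg

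CDK1, chr10:60778165-60778210, plus strand: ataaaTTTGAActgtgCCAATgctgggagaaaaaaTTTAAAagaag

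CCNB1, chr5:69167058-69167130, plus strand: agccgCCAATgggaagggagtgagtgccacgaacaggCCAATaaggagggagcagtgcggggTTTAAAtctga

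CCNB2, chr15:59105021-59105124, plus strand: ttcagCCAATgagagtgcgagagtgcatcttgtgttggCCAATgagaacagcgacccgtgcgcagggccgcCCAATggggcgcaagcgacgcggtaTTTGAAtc

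MKI67, chr10:128126438-128126528, minus strand: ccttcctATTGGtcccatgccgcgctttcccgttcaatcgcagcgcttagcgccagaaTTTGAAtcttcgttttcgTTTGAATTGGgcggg

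The libraries held 29225900 to 43181402 counts each, the 41 genes took 0.657% to 0.763% of the counts of a library, and the lowest count of any of them in any library was 384. The median coefficient of variation of the genes within a group was 3.28%. Of 11 mast cell markers, 8 lay above 1 FPKM (a level that allows for transcript length and library size) in all 12 libraries, FCER1A ranged from 0.12 to 1.27 FPKM, MS4A2, which encodes a chain of the IgE receptor, reached at most 0.45 FPKM and CMA1, which encodes chymase, at most 0.15. Of 9 markers of other cells, 7 stayed under 1 FPKM in all libraries, and HBB ranged from 0.47 to 3.26 FPKM. KIT, which holds the edited site, had 419, 418 and 405 FPKM in the HMC-1.1 libraries, 363, 346 and 358 in HMC-1.2, 455, 427 and 469 in clone 1, and 399.76, 402 and 412 in clone 2. By the paper's design the repair template also carried a silent change in the next codon, beside the repair of V560G. Since the edit replaces single bases, the KIT level does not check the labels. The labels mark 3 libraries as resent (HMC-1.2 replicate 1, clone 1 replicate 3 and clone 2 replicate 1).

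By mean FPKM over all libraries, PCNA (248), the ubiquitin-conjugating enzyme UBE2C (239), securin PTTG1 (217), MCM7 (202) and cyclin B1 (CCNB1, 176) had the highest levels of the 41 genes, and cyclin E2 (CCNE2), the polymerase alpha subunit POLA1 (13.4) and the kinetochore motor CENPE (14.2) the lowest. The mean CPM (counts relative to the scaled library total) was highest in HMC-1.2 for 25 of the 41 genes and lowest in clone 1 for 32. Among all genes tested, HMC-1.2 was the highest group for 32.7% and clone 1 the lowest for 26.8%. By set, clone 1 was the lowest group for 16 of 22 S phase genes and 16 of 19 G2/M genes.

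The main question was how the 2 sets differed between the double mutant HMC-1.2 and each of the other sublines. These 3 comparisons share the HMC-1.2 libraries, so they are given side by side. A gene was called at an adjusted p under 0.05 in the quasi-likelihood test of edgeR, adjusted over all genes by the method of Benjamini and Hochberg, and fold changes are the first group over the second on the log2 scale.

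In clone 1, 35 of the 41 genes were called against HMC-1.2, of which 34 were lower and 1 higher, with a median log2 fold change of -0.23. Of all genes tested, 29.3% were called lower and 30.1% higher, with a median of 0.01. All genes tested include genes at lower counts than the 41, none of which fell under 384 counts in any library. On simulated counts a log2 change of 0.5 was called in 59 of 100 genes, and in 52 of 54 at or above that count. The part of count level in the differences from the shares of all genes, here and below, was not tested. This holds for shares called and for shares past 1.5-fold. The S phase set fell in 17 of 22 genes with none higher (median -0.19), and the G2/M set fell in 17 of 19 with 1 higher (median -0.24). The higher gene was AURKB, the Aurora kinase of the chromosomal passenger complex, by 0.11, a call that was lost without HMC-1.2 replicate 1 or 3 and without clone 1 replicate 1 or 2. The changes were small, and 3 genes passed 1.5-fold (RRM2, CCNE2 and CDC6, all lower), against 20% of all genes in either direction. With limma on log2(FPKM + 1), in place of the counts, 30 genes were called, 26 lower and 4 higher, and the calls of BUB1, BUB1B, CCNB2, CENPF, MCM4, MCM6, PTTG1 and TPX2 were lost.

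In clone 2, 21 genes were called against HMC-1.2, 15 lower and 6 higher, with a median of -0.07. Of all genes, 23.8% were lower and 24.7% higher. The S phase set had 8 lower and 4 higher (PCNA, MCM4, GINS1 and RRM1), and the G2/M set 7 lower and 2 higher (BUB1B and PTTG1). CDK1 alone passed 1.5-fold, against 16.5% of all genes. By limma on FPKM the calls of CCNE1, CDT1, E2F1 and MCM4 were lost.

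In HMC-1.1, 23 genes were called against HMC-1.2, 22 lower and 1 higher (PCNA), with a median of -0.14. Of all genes, 26.5% were lower and 27.2% higher. The S phase set had 12 lower and 1 higher, the G2/M set 10 lower and none higher, and RRM2 alone passed 1.5-fold, against 17.6% of all genes. By limma on FPKM the calls of CCNB2, CCNE2, CDC6, GINS2, KIF11 and KIF23 were lost. In all 3 comparisons 14 genes were called lower, against 14.9% of all genes tested: MCM3, MCM5, MCM7, RRM2, RFC2, E2F1 and CCNE1 of the S phase set, and CDK1, CCNB1, PLK1, AURKA, TOP2A, KIF23 and UBE2C of the G2/M set. The place of E2F1 in this count rests on a call in clone 2 that most alternatives did not keep, and that of RFC2 on a call in clone 1 lost without HMC-1.2 replicate 1. That of CCNE1 rests on a call in clone 2 lost in both limma fits and on leaving out any of 3 single libraries. The HMC-1.1 call of KIF23 was lost in both limma fits. As HMC-1.2 is the shared reference, a high value in its libraries enters each of the 3.

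**Figure D1:**
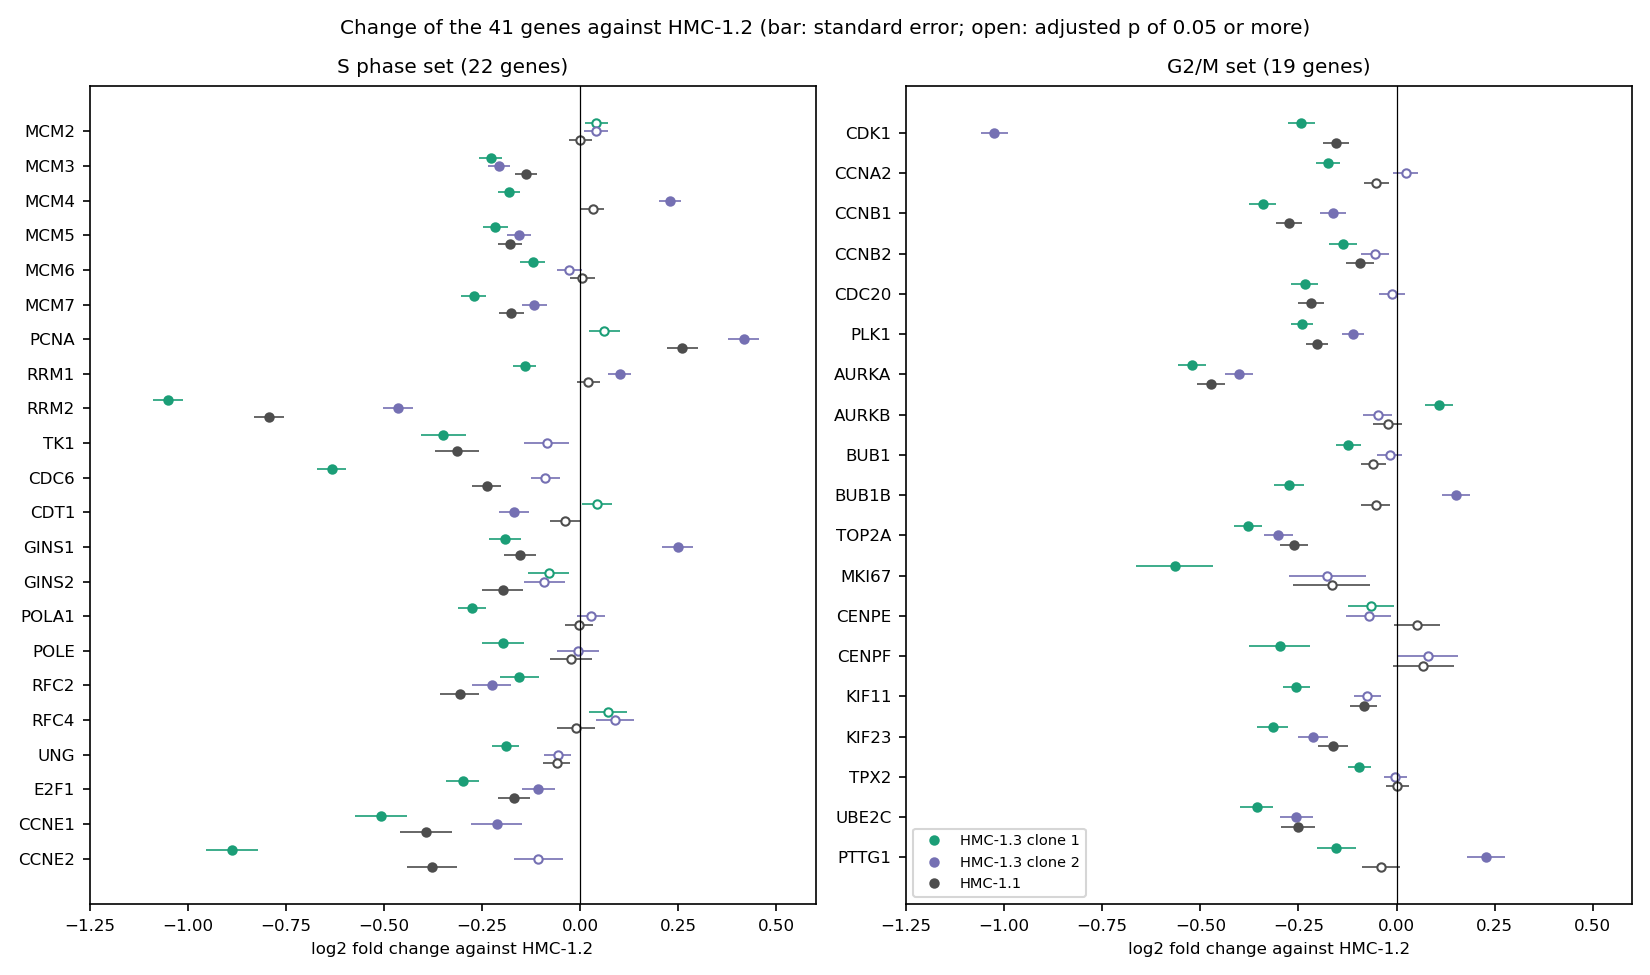
Log2 fold change of the 22 S phase genes (left) and 19 G2/M genes (right) in clone 1, clone 2 and HMC-1.1 against HMC-1.2, with the standard error as a bar and open points where the adjusted p was 0.05 or more. RRM2 reached -1.05 in clone 1 and CDK1 -1.02 in clone 2, while most genes lay within 0.5 of 0.

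The 2 clones differed from each other in 31 genes, 28 lower and 3 higher in clone 1, where 24.7% of all genes were lower and 25.5% higher. Of the S phase set 15 were lower and 1 higher (CDT1), and of the G2/M set 13 were lower and 2 higher (CDK1 and AURKB). The calls of AURKA, KIF23, MCM6, TPX2 and UNG were lost by limma on log2(FPKM + 1). Upper-quartile factors lost those of BUB1, KIF23, MCM6 and TPX2. RRM2, CCNE2 and CDK1 passed 1.5-fold, against 12.6% of all genes. Against HMC-1.1, clone 1 was lower in 21 genes and higher in 2, where 9.83% of all genes were lower and 8.87% higher, and none passed 1.5-fold, against 1.01% of all genes. In that comparison DESeq2 called 23 genes, 22 of them lower, limma on FPKM called 11, 10 of them lower, and edgeR without 1 library called 16 to 22. Over all genes DESeq2 called 2903, limma on log2(FPKM + 1) 1529, and edgeR without 1 library 1962 to 3030, against 1415 higher and 1568 lower in the main fit. Clone 2 was higher than HMC-1.1 in 14 genes and lower in 2 (CDK1 and CDT1), where 18.5% of all genes were higher and 17.5% lower, and CDK1 alone passed 1.5-fold, against 8.19%. Of these calls, those of CCNE1, CCNE2, CDC6, CDT1, MCM4 and RRM1 were lost by limma on log2(FPKM + 1). That of CDT1 was also lost without HMC-1.1 replicate 1 or clone 2 replicate 1, and that of RRM1 in 15 of 22 alternatives.

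To compare the sets within each library, the log2 CPM of each gene was centred on its mean over the 12 libraries and averaged over a set. The values were highest in HMC-1.2, with a mean of 0.11 ± 0.02 (SD, n = 3) for the S phase set and 0.13 ± 0.02 for the G2/M set. In clone 1 they were -0.15 ± 0.02 and -0.12 ± 0.01. Both sets thus stood lowest in clone 1, and no library of clone 1 overlapped with a library of another group in either set. In HMC-1.1 the values were -0.03 ± 0.03 and -0.0028 ± 0.03.

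By this average over genes, clone 2 was the group in which the sets parted. Its S phase value was 0.07 ± 0.01 and its G2/M value -0.0029 ± 0.02. The S phase minus G2/M difference was 0.07, 0.08 and 0.07 in its 3 libraries, and between -0.07 and 0.005 in the 9 others, so that clone 2 did not overlap with the rest. Without CDK1, an alternative added after the values were seen, the gap between clone 2 and HMC-1.2 was 0.04 in place of 0.09, and the clone 2 libraries, at 0.0276 to 0.0442, still lay above the highest other library, at 0.0169. Leaving out CDK1 and RRM2, also after the values were seen, put the clone 2 libraries at 0.0248 to 0.0437. The highest other library, of clone 1, was then at 0.0226. No p is given for these library values, since they are averages over chosen genes. By single genes the sets lay close in clone 2 against HMC-1.2. The median log2 fold change was -0.09 for the S phase set and -0.07 for the G2/M set, with 36.4% and 36.8% called lower.

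**Figure D2:**
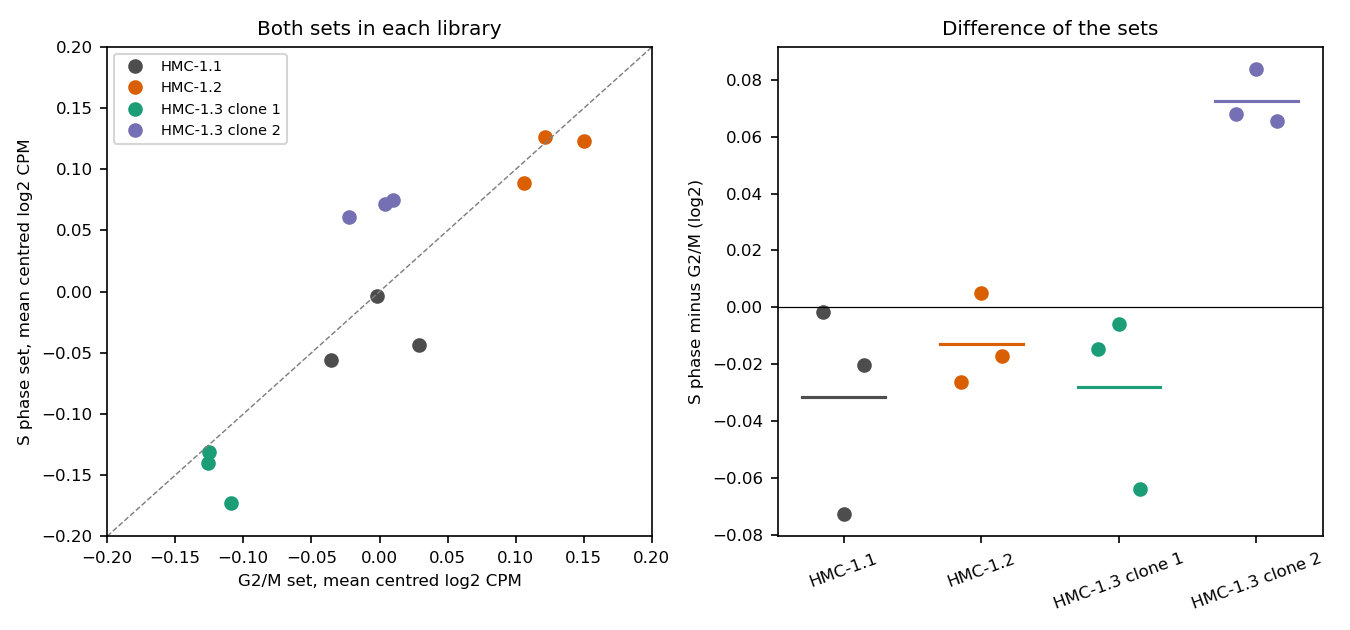
Mean centred log2 CPM of the S phase set against that of the G2/M set in each library (left, dashed line at equal values), and their difference by group (right, line at the group mean). HMC-1.2 and clone 1 lie at the upper and lower ends of the dashed line, and the 3 clone 2 libraries lie above it.

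In the S phase set RRM2 had the largest change. RRM2 (chr2:10120698-10211725) encodes the cell cycle-regulated small subunit of ribonucleotide reductase, the enzyme that makes deoxynucleotides. Its level was 129, 136 and 132 FPKM in HMC-1.2, 69.7, 75.2 and 68.9 in clone 1, 99.97, 97.2 and 99.7 in clone 2, and 82.0, 89.2 and 84.7 in HMC-1.1. No pair of groups overlapped, and the order was HMC-1.2, clone 2, HMC-1.1, clone 1. The log2 fold change against HMC-1.2 was -1.05 ± 0.04 (SE) in clone 1 (adjusted p = 4.2e-13, edgeR), a 2.07-fold lower level, -0.46 ± 0.04 in clone 2 (adjusted p = 2.1e-08, edgeR) and -0.79 ± 0.04 in HMC-1.1 (adjusted p = 1.9e-11, edgeR). The clones also differed, by -0.59 (adjusted p = 2.1e-09, edgeR). Its partner RRM1, the large subunit that is present through the cycle, changed by -0.14 in clone 1 (adjusted p = 0.00054, edgeR) and by 0.10 in clone 2 (adjusted p = 0.0085, edgeR).

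Thymidine kinase 1 (TK1), which salvages thymidine in S phase, fell by 0.35 in clone 1 and by 0.31 in HMC-1.1, and its log2 fold change in clone 2 was -0.09 (adjusted p = 0.23, edgeR). UNG, the uracil-DNA glycosylase, fell in clone 1 only among the 3 comparisons with HMC-1.2, by 0.19, and the clones differed in it (adjusted p = 0.004, edgeR).

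The E-type cyclins were lower in clone 1. CCNE2 (chr8:94879770-94896678), cyclin E2, was at 9.05, 9.03 and 9.65 FPKM in HMC-1.2, 5.83, 5.36 and 5.14 in clone 1, 9.14, 8.62 and 10.4 in clone 2, and 7.82, 8.64 and 7.43 in HMC-1.1. All clone 1 libraries lay under all others. The log2 fold change was -0.89 ± 0.07 in clone 1 (adjusted p = 4.3e-09, edgeR), -0.11 ± 0.06 in clone 2 (adjusted p = 0.17) and -0.38 ± 0.06 in HMC-1.1 (adjusted p = 8.2e-05, edgeR), and the clones differed by -0.78 (adjusted p = 3.9e-08, edgeR). CCNE2 shares 1977 bases with INTS8 and 1146 with NDUFAF6, both on the other strand, and the strand setting of the counting was not given in the sources used here. The same limit holds for CCNA2, GINS1, GINS2, MCM7, RFC4 and POLA1, which overlap tested genes on the other strand, and UNG shares bases with ACACB on its own strand.

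CCNE1 (chr19:29811991-29824312), cyclin E1, had 15.2, 17.5 and 18.8 FPKM in HMC-1.2, 14.5, 12.4 and 12.2 in clone 1, 14.9, 16.4 and 15.5 in clone 2, and 13.1, 14.3 and 13.5 in HMC-1.1. The clone 2 libraries overlapped with those of HMC-1.2, and the other 2 groups lay below them. It fell by 0.51 in clone 1, by 0.21 in clone 2 and by 0.39 in HMC-1.1. E2F1, the activator E2F factor that is itself an E2F target, fell by 0.30, 0.11 and 0.17 in the same order. The call in clone 2 (adjusted p = 0.044, edgeR) was lost in 15 of 22 alternatives, among them DESeq2 and the omission of any HMC-1.2 library, and that of CCNE1 in clone 2 was lost without HMC-1.2 replicate 2 or 3 or clone 2 replicate 1.

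Of the factors that load the helicase, CDC6 was called lower in clone 1 and HMC-1.1, and CDT1 in clone 2. CDC6 (chr17:40287879-40304657) was at 25.9, 25.7 and 26.4 FPKM in HMC-1.2, 17.1, 17.8 and 18.5 in clone 1, 25.5, 24.1 and 24.8 in clone 2, and 25.2, 25.7 and 22.8 in HMC-1.1. Clone 1 stood apart from the other 3 groups. The log2 fold change was -0.63 ± 0.04 in clone 1 (adjusted p = 2.2e-10, edgeR), -0.09 ± 0.04 in clone 2 (adjusted p = 0.054) and -0.24 ± 0.04 in HMC-1.1 (adjusted p = 3.5e-05, edgeR). The HMC-1.1 call of CDC6 rests on the counts, since its highest FPKM lay just under the lowest of HMC-1.2 and limma on log2(FPKM + 1) gave -0.08, not called. CDT1 changed by 0.04 in clone 1 (adjusted p = 0.36, edgeR) and by -0.17 in clone 2 (adjusted p = 0.0017, edgeR), and the clones differed in it by 0.21 (adjusted p = 0.00022, edgeR).

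The 6 MCM genes, which encode the subunits of 1 hexameric helicase, did not move as a block. Clone 1 was lower in 5 of them, with log2 fold changes from -0.27 for MCM7 to -0.12 for MCM6, and MCM2 did not pass the test in any of the 3 comparisons with HMC-1.2 (0.04, 0.04 and 0.00). In clone 2, MCM3, MCM5 and MCM7 were lower and MCM4 higher. MCM4 (chr8:47960185-47978160) was at 74.9, 64.0 and 83.8 FPKM in HMC-1.2, 61.1, 67.6 and 71.0 in clone 1, 81.2, 82.1 and 91.4 in clone 2, and 67.5, 73.6 and 74.2 in HMC-1.1. The FPKM of HMC-1.2 overlapped with those of each other group, whereas the counts gave -0.18 ± 0.03 in clone 1 (adjusted p = 3.7e-05, edgeR) and 0.23 ± 0.03 in clone 2 (adjusted p = 3.7e-06, edgeR).

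GINS1 (chr20:25391008-25452700), a subunit of the GINS complex that activates the helicase, had 17.1, 16.5 and 17.5 FPKM in HMC-1.2, 15.5, 15.6 and 15.6 in clone 1, 19.8, 19.9 and 21.8 in clone 2, and 15.9, 15.5 and 15.2 in HMC-1.1. Clone 2 lay above all other libraries. Its log2 fold change was 0.25 in clone 2 (adjusted p = 6.1e-05, edgeR) and -0.19 in clone 1 (adjusted p = 0.00065, edgeR), and the clones differed by -0.44. GINS2 was called in HMC-1.1 alone of the 3, at -0.20.

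PCNA (chr20:5114953-5126626), the sliding clamp, had its lowest mean in HMC-1.2. It measured 219, 211 and 203 FPKM there, 234, 236 and 219 in clone 1, 297, 279 and 292 in clone 2, and 263, 259 and 265 in HMC-1.1. Clone 2 and HMC-1.1 lay above HMC-1.2 and did not overlap with each other, while clone 1 reached down to the highest HMC-1.2 library. The log2 fold change was 0.42 ± 0.04 in clone 2 (adjusted p = 1.2e-07, edgeR), 0.26 ± 0.04 in HMC-1.1 (adjusted p = 2.9e-05, edgeR) and 0.06 ± 0.04 in clone 1 (adjusted p = 0.19). The polymerase subunits POLA1 and POLE fell in clone 1, by 0.28 and 0.20, and were not called in clone 2 or HMC-1.1. Of the clamp loader genes, RFC2 fell in all 3 comparisons (by 0.15, 0.23 and 0.31) and RFC4 was called in none of the 3.

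**Figure D3:**
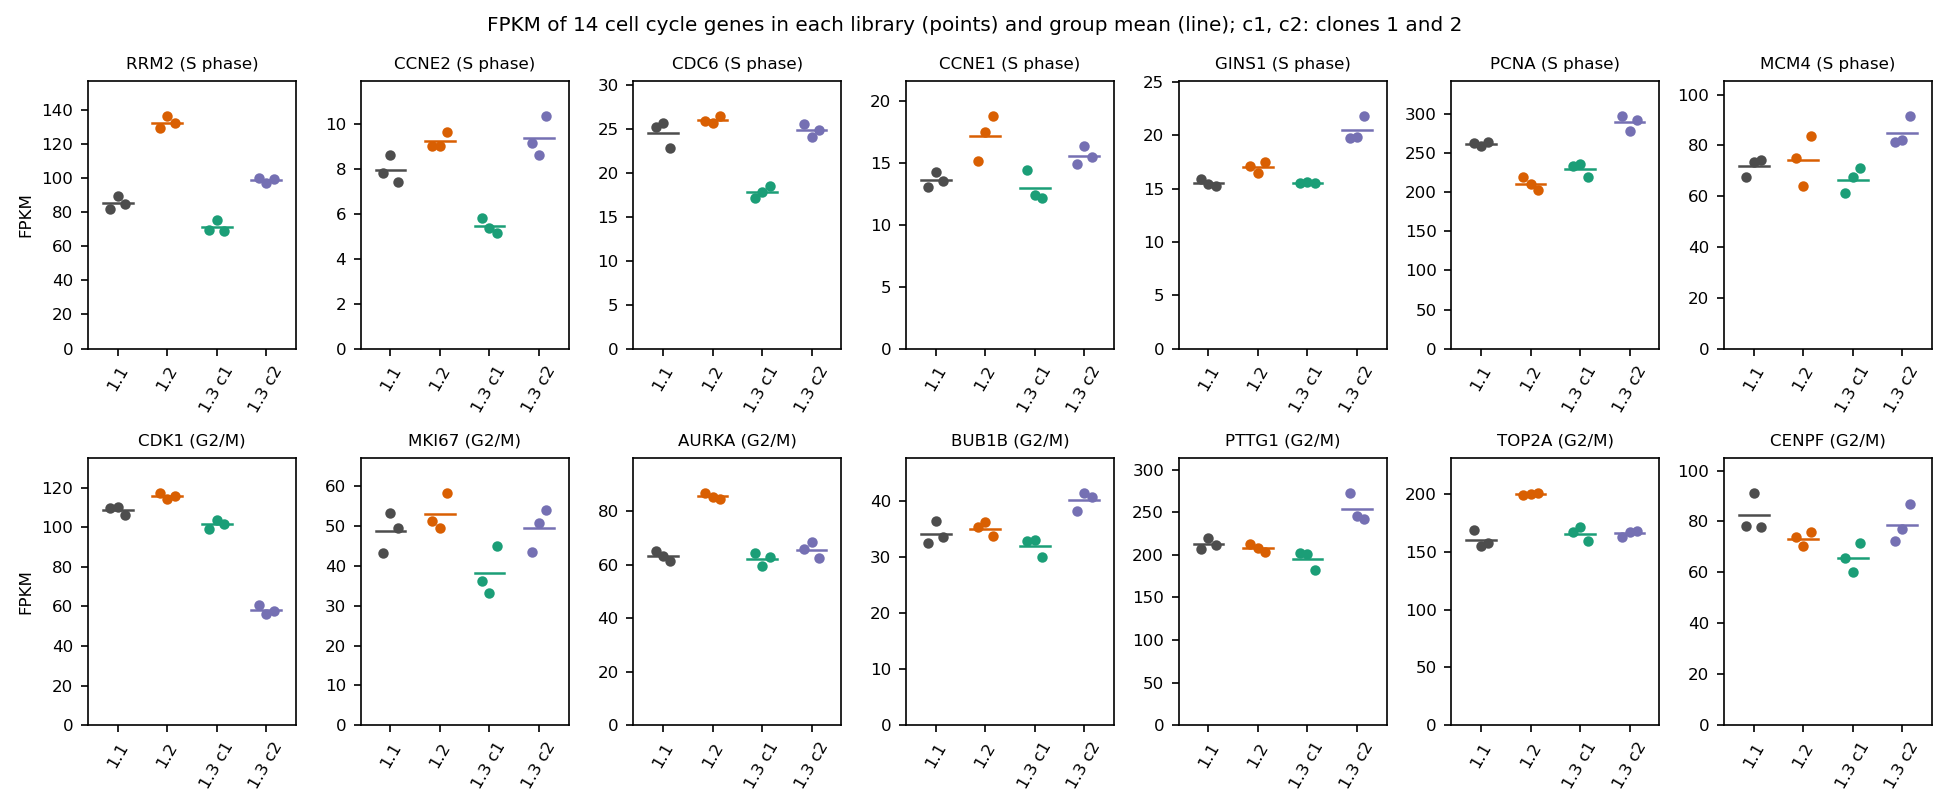
FPKM in each library (points) with the group mean (line) for the 7 S phase genes (top) and 7 G2/M genes (bottom) with the largest changes, each axis from 0. RRM2 spans 68.9 to 136 FPKM, and CDK1 drops to 56.2 to 60.6 FPKM in the 3 clone 2 libraries against 99.3 to 117 in the other 9.

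In the G2/M set, CDK1 had the largest change, in 1 clone. CDK1 (chr10:60778331-60794852), the kinase that drives entry into mitosis, was at 117, 114 and 116 FPKM in HMC-1.2, 99.3, 104 and 102 in clone 1, 60.6, 56.2 and 57.6 in clone 2, and 110, 110 and 106 in HMC-1.1. The clone 2 libraries lay far below all others. Its log2 fold change against HMC-1.2 was -1.02 ± 0.03 in clone 2 (adjusted p = 1.1e-13, edgeR), a 2.04-fold lower level, -0.24 ± 0.03 in clone 1 (adjusted p = 8.1e-06, edgeR) and -0.15 ± 0.03 in HMC-1.1 (adjusted p = 0.00088, edgeR). Clone 2 was also lower than HMC-1.1 by 0.87 (adjusted p = 4.4e-12, edgeR), and clone 1 exceeded clone 2 by 0.78 (adjusted p = 1e-11, edgeR).

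The cyclins that bind CDK1 did not share this drop. In clone 2, cyclin A2 (CCNA2) changed by 0.02 (adjusted p = 0.59, edgeR), cyclin B1 (CCNB1) by -0.16 (adjusted p = 0.00071, edgeR) and cyclin B2 (CCNB2) by -0.05 (adjusted p = 0.22, edgeR). In clone 1 all 3 fell, by 0.17, 0.34 and 0.14.

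To see whether genes beside the most changed ones moved too, the 5 nearest tested protein-coding genes on each side of the most changed genes were read, a look that was added after the values were seen. The 10 neighbours of CDK1 in clone 2 had a median of 0.13 against HMC-1.2 (from -0.11 to 0.78), with 1 called lower and 5 higher, so that the fall of CDK1 was not shared by the genes beside it. The 10 neighbours of RRM2 in clone 1 had a median of -0.22 (from -0.57 to 0.56), with 6 called lower and 1 higher. RRM2 at -1.05 lay below all of them, and HPCAL1, ODC1, NOL10 and PDIA6, which follow it on the chromosome, were lower by 0.42, 0.29, 0.43 and 0.57. The part of a shared change of this region in the RRM2 level was not tested. The 10 neighbours of CCNE2 in clone 1 had a median of 0.35 (from -0.12 to 0.95), with 1 called lower and 5 higher. Those of CDC6 had a median of -0.08 (from -4.94 to 0.15), with 4 called lower, TOP2A among them, and 1 higher. The lowest of these thus lay far below CDC6 itself, which was at -0.63.

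**Figure D4:**
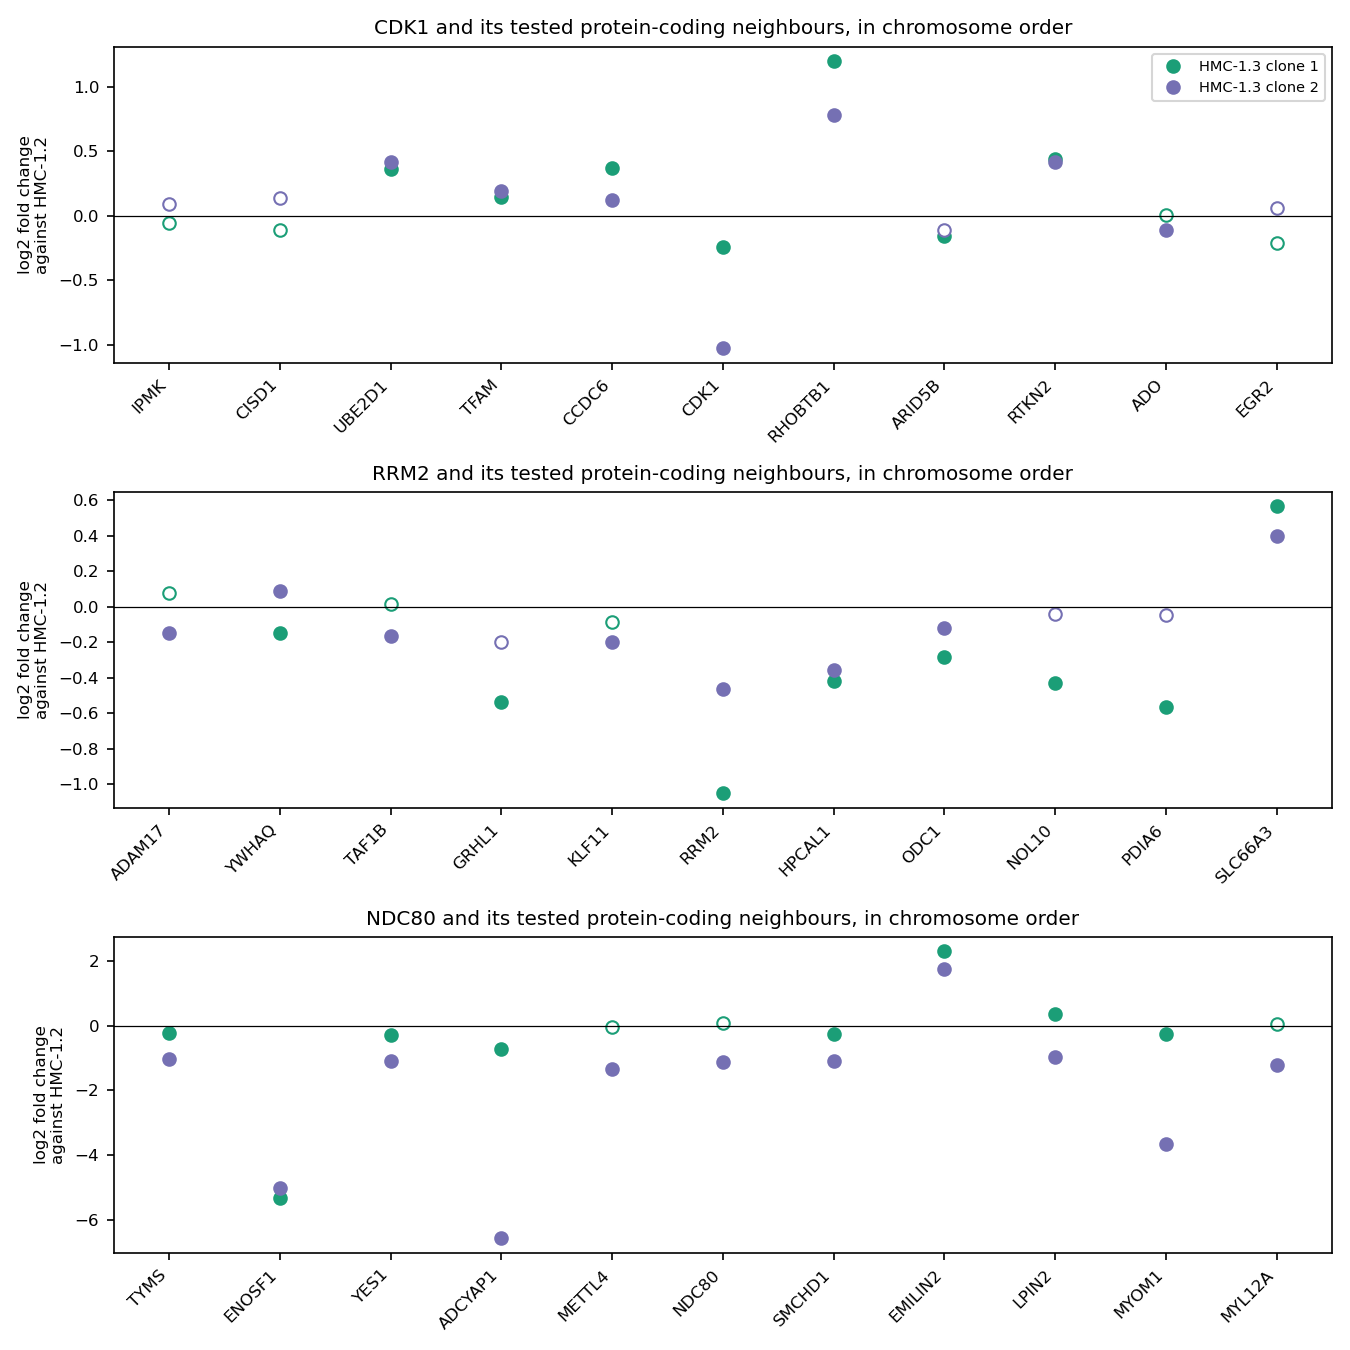
Log2 fold change of CDK1, RRM2 and NDC80 and of their tested protein-coding neighbours, in chromosome order, in clone 1 and clone 2 against HMC-1.2 (open points: adjusted p of 0.05 or more). CDK1 at -1.02 in clone 2 stands alone among neighbours from -0.11 to 0.78, whereas 9 of the 10 neighbours of NDC80 were called lower in clone 2.

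Among the mitotic kinases, AURKA (chr20:56369389-56392337), the Aurora kinase of the spindle poles, was at 86.9, 85.2 and 84.8 FPKM in HMC-1.2, 64.4, 59.6 and 62.9 in clone 1, 66.0, 68.4 and 62.7 in clone 2, and 65.3, 63.2 and 61.3 in HMC-1.1. HMC-1.2 stood above the other groups, which overlapped. The log2 fold change was -0.52 ± 0.04 in clone 1 (adjusted p = 1.5e-09, edgeR), -0.40 ± 0.04 in clone 2 (adjusted p = 5.2e-08, edgeR) and -0.47 ± 0.04 in HMC-1.1 (adjusted p = 6.3e-09, edgeR). PLK1, the Polo kinase of centrosomes and spindles, fell in all 3 by 0.24, 0.11 and 0.20. BUB1B (chr15:40161023-40221123), a spindle checkpoint protein, was at 35.3, 36.3 and 33.8 FPKM in HMC-1.2, 33.0, 33.2 and 30.1 in clone 1, 38.3, 41.5 and 40.8 in clone 2, and 32.5, 36.5 and 33.7 in HMC-1.1. Clone 2 lay above and clone 1 below HMC-1.2. It fell by 0.27 in clone 1 and rose by 0.15 in clone 2 (adjusted p = 0.0025, edgeR), and the clones differed by -0.43 (adjusted p = 6.1e-08, edgeR). BUB1, its partner at kinetochores, fell in clone 1 by 0.12.

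The genes of anaphase split in clone 2. PTTG1 (chr5:160421855-160428739), securin, which holds separase in check until anaphase, was at 213, 207 and 204 FPKM in HMC-1.2, 202, 201 and 183 in clone 1, 273, 245 and 242 in clone 2, and 206, 219 and 211 in HMC-1.1. Clone 2 lay above all other libraries. It rose by 0.23 in clone 2 (adjusted p = 0.00082, edgeR) and fell by 0.15 in clone 1 (adjusted p = 0.012, edgeR), a call lost without clone 1 replicate 3. UBE2C, which works with the anaphase-promoting complex, fell in all 3 comparisons by 0.36, 0.26 and 0.25, and CDC20, its activator, fell by 0.23 in clone 1 and by 0.22 in HMC-1.1 and changed by -0.01 in clone 2 (adjusted p = 0.81, edgeR).

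TOP2A (chr17:40388525-40417896), the topoisomerase that untangles sister chromatids, was at 199, 201 and 201 FPKM in HMC-1.2, 167, 172 and 159 in clone 1, 163, 167 and 168 in clone 2, and 169, 155 and 158 in HMC-1.1. The 3 other groups overlapped with each other and lay under HMC-1.2. It fell by 0.38, 0.30 and 0.26 in clone 1, clone 2 and HMC-1.1 (adjusted p = 9.9e-08, 2.3e-06 and 9.9e-06, edgeR).

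MKI67 (chr10:128096659-128126423), which encodes the proliferation marker Ki-67, varied more between libraries than most of the genes. Its level was 51.3, 49.6 and 58.4 FPKM in HMC-1.2, 36.2, 33.3 and 44.9 in clone 1, 43.6, 50.9 and 54.1 in clone 2, and 43.2, 53.4 and 49.6 in HMC-1.1. Clone 1 lay below HMC-1.2 and overlapped with the other 2 groups. The log2 fold change was -0.56 ± 0.10 in clone 1 (adjusted p = 9.6e-05, edgeR), -0.18 ± 0.10 in clone 2 (adjusted p = 0.15) and -0.17 ± 0.10 in HMC-1.1 (adjusted p = 0.17). CENPF (chr1:214603185-214664574), a kinetochore protein, was at 73.7, 70.2 and 76.0 FPKM in HMC-1.2, 65.6, 60.2 and 71.6 in clone 1, 72.2, 77.1 and 86.9 in clone 2, and 78.2, 91.3 and 77.8 in HMC-1.1. Clone 1 overlapped with HMC-1.2 and lay under clone 2 and HMC-1.1, and HMC-1.1 lay above HMC-1.2 by FPKM, with a log2 fold change by counts of 0.07 (adjusted p = 0.49, edgeR). It fell by 0.30 in clone 1 (adjusted p = 0.0033, edgeR). MKI67, CENPF and CENPE had their highest FPKM in the same library of each of the 4 groups. The spindle motors KIF11 and KIF23 fell in clone 1 by 0.26 and 0.32, and TPX2, the activator of Aurora A, by 0.10.

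Further genes of the same processes were read from lists that do not hold the 41 genes. The shares of all genes to set beside them were 29.3% lower and 30.1% higher in clone 1 against HMC-1.2. They were 23.8% and 24.7% in clone 2, and 26.5% and 27.2% in HMC-1.1. Of 33 other replication genes, 17 were lower and 5 higher in clone 1 against HMC-1.2 (median -0.13), 8 lower and 8 higher in clone 2 (median -0.01), and 14 lower and 5 higher in HMC-1.1 (median -0.09). As shares, 51.5%, 24.2% and 42.4% were lower and 15.2%, 24.2% and 15.2% higher, so that clone 2 was near the shares of all genes. The largest changes were those of MCM10, which joins the helicase at origins (-0.56 in clone 1, -0.23 in clone 2, -0.36 in HMC-1.1), CLSPN, the fork protein claspin (-0.52 in clone 1), and POLE2, a polymerase epsilon subunit (0.51 in clone 2). Of 49 other mitosis genes tested, 30 were lower and 7 higher in clone 1 (median -0.12), 15 lower and 5 higher in clone 2 (median -0.04), and 20 lower and 7 higher in HMC-1.1 (median -0.06). As shares, 61.2%, 30.6% and 40.8% were lower and 14.3%, 10.2% and 14.3% higher. DEPDC1, the 50th listed gene, did not pass the filter.

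Against HMC-1.2, the shugoshin SGO1, which protects centromeric cohesion, fell in all 3 groups, by 0.66, 0.61 and 0.70 in clone 1, clone 2 and HMC-1.1. SMC4, a condensin subunit, rose by 0.59 in clone 1 and 0.72 in HMC-1.1 and was at 0.07 in clone 2 (adjusted p = 0.16, edgeR). NDC80, a kinetochore protein that binds microtubules, fell by 1.13 in clone 2 (adjusted p = 1.2e-12, edgeR) and had 0.07 in clone 1 (adjusted p = 0.19, edgeR).

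Of 14 genes of nucleotide synthesis, 4 were lower and 4 higher in clone 1, 2 lower and 6 higher in clone 2, and 3 lower and 4 higher in HMC-1.1, with medians of -0.03, 0.10 and 0.06. In clone 1 28.6% were lower and 28.6% higher, near the 29.3% and 30.1% of all genes. The shares were 14.3% and 42.9% in clone 2, and 21.4% and 28.6% in HMC-1.1. Thymidylate synthase TYMS, which makes the thymidine nucleotide, fell by 1.02 in clone 2 (adjusted p = 8.3e-14, edgeR), with 135 ± 0.53 FPKM (SD, n = 3) against 268 ± 11.9 in HMC-1.2, and by 0.22 in clone 1. TYMS (chr18:657653-673578) and NDC80 (chr18:2571557-2616635) lie near each other at one end of chromosome 18. All 8 tested neighbours of TYMS were called lower in clone 2 (median -1.23), as were 9 of 10 neighbours of NDC80 (median -1.16), some of which are counted for both, so that these falls were shared with the genes around them, unlike that of CDK1. The mitochondrial thymidine kinase TK2 rose by 0.81 in clone 1, and IMPDH2, of guanine nucleotide synthesis, by 0.56.

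Among 19 regulators of the E2F and MuvB programme, 10 were lower and 5 higher in clone 1, and 9 were lower and 5 higher in both clone 2 and HMC-1.1. The shares lower were 52.6%, 47.4% and 47.4%, and the share higher was 26.3% in each, against 30.1%, 24.7% and 27.2% of all genes higher. The largest changes were rises. E2F5, a repressor E2F, rose by 1.19 in clone 1, by 1.07 in clone 2 and by 1.01 in HMC-1.1, TFDP2, a dimerization partner of E2F factors, rose by 1.04, 0.85 and 0.98, and E2F7, an atypical repressor, rose by 0.68 in clone 2 and 0.41 in HMC-1.1 and was at 0.07 in clone 1 (adjusted p = 0.36, edgeR). The TFDP2 level was 68.1 ± 4.05 FPKM in clone 1 and 57.1 ± 2.05 in clone 2, against 33.3 ± 2.27 for HMC-1.2 and 63.0 ± 2.23 for HMC-1.1 (SD, n = 3).

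Of 22 genes of the CDK1 switch and the anaphase-promoting complex, 10 were lower and 5 higher in clone 1, 7 lower and 3 higher in clone 2, and 8 lower and 6 higher in HMC-1.1, with medians of -0.08, -0.06 and -0.08. As shares, 45.5%, 31.8% and 36.4% were lower and 22.7%, 13.6% and 27.3% higher. CDC25A, the phosphatase that activates CDK2 and CDK1, fell by 0.72 in clone 1 and 0.52 in HMC-1.1 and had -0.06 in clone 2 (adjusted p = 0.18, edgeR), while its relative CDC25B rose in all 3 by 0.52, 0.37 and 0.53. UBE2S, which extends ubiquitin chains for the anaphase-promoting complex, fell by 0.57, 0.55 and 0.59. Among 13 G1 cyclins, CDKs and inhibitors, 5 were lower and 7 higher in clone 1, 3 lower and 8 higher in clone 2, and 5 lower and 8 higher in HMC-1.1. As shares, 38.5%, 23.1% and 38.5% were lower and 53.8%, 61.5% and 61.5% higher. Cyclin D1 (CCND1) fell by 3.03 in clone 1, by 1.07 in clone 2 and, against HMC-1.2 as well, fell by 2.93 in HMC-1.1, and CDK4 rose by 0.96, 0.61 and 0.90. CDK6, a second partner of D-type cyclins, rose by 1.23, 1.59 and 1.46 at low levels, with 0.837 FPKM in HMC-1.2 and 2.02 in clone 1.

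**Figure D5:**
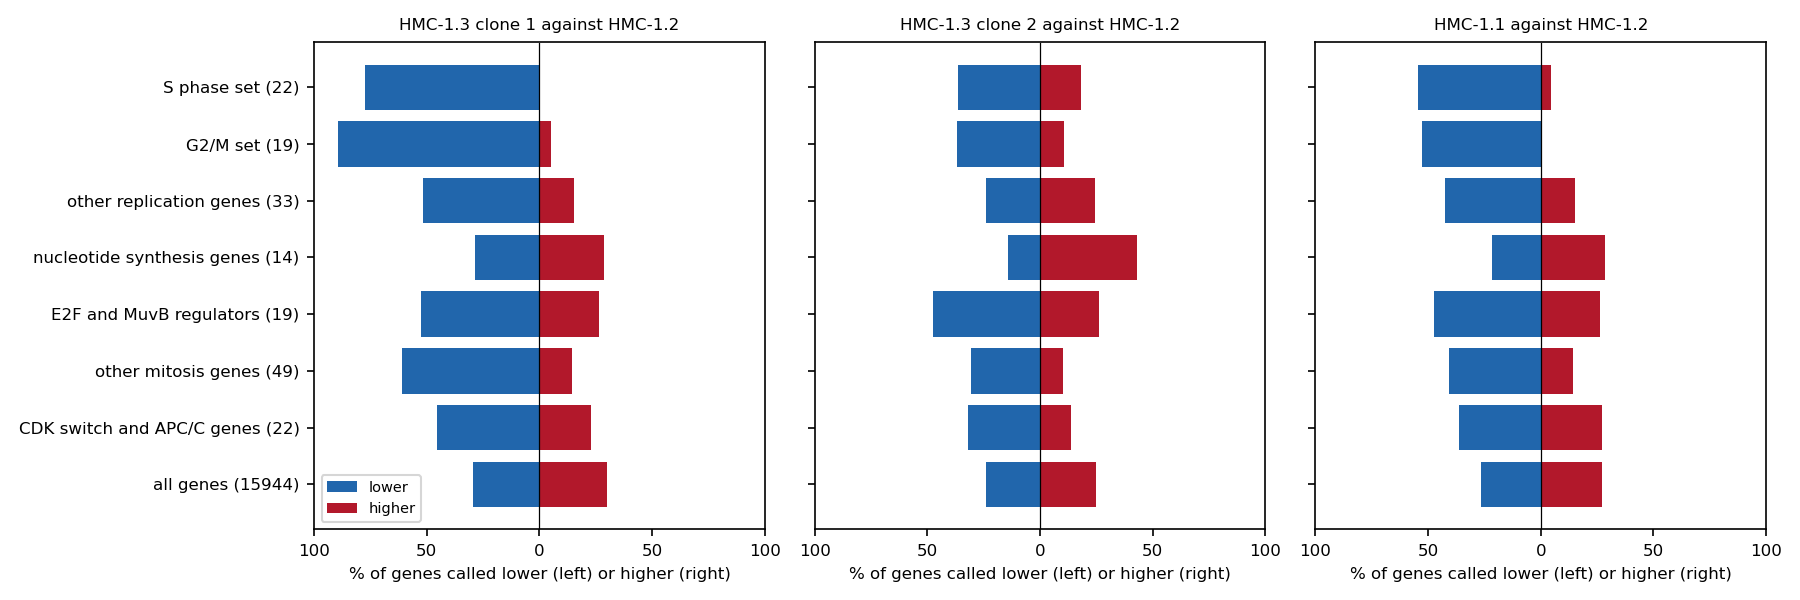
Share of genes called lower (left of 0) or higher (right of 0) against HMC-1.2 in clone 1, clone 2 and HMC-1.1, for the S phase and G2/M sets, 5 further lists and all 15944 genes tested. In clone 1 the S phase set reached 77.3% and the G2/M set 89.5% lower, against 29.3% of all genes.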

How the data were processed

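The 12 libraries (polyadenylated RNA, stranded kit, read pairs) were grouped by their labels into 4 groups of 3. Expected counts per gene were estimated and deposited by the authors with RSEM 1.3.0 after trimming with cutadapt 2.10 and alignment to hg38 with STAR 2.5.3, per the submitters' processing notes. In them, 7.39% of values (16.9% for the 41 genes) were not whole, and they were rounded here. The FPKM values deposited by the authors scale fragments for transcript length and library size and served for levels. Copies of the 41 genes were looked for by symbol and found for UNG, CDC20, UBE2C and PTTG1 only, with at most 0.106% of a gene's counts. Copies under other names were not looked for.

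Counts were fitted with edgeR 4.0.16 (R 4.3.3), TMM factors (0.974 to 1.02) and filterByExpr, with the 4 groups as the only terms, and log2 CPM used a prior count of 2. DESeq2 1.42.0, limma 3.58.1, other scalings and filters, a replicate block, a term for resent libraries and the omission of each library were alternatives. On simulated counts for clone 1 against HMC-1.2 (15672 genes), the test called 59 of 100 genes with a log2 change of 0.5 and 82 of 100 with a change of 1, with 5 false calls. Among genes at or above the lowest count of the 41, a level set after those shares were seen, it called 52 of 54 and 57 of 57. Values per library were given for the 7 genes of each set with the largest called change, past 1.5-fold first, and other lists by their 3 largest called changes against HMC-1.2. The 41 genes, the lists and the rules were chosen with earlier results of these data known. Replicates of a group differed by more than sampling noise (chi-square per degree of freedom 2.88 to 8.01). Gene positions are from Gencode 44 on GRCh38. The alleles of KIT and the reads were not analysed here, and the level of 1 marker of other cells is not reported here.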

Additional observations from a re-analysis of the deposited data

Results flagged for a closer look

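The clones, which carry the same edit, differed past 1.5-fold in 3 of the 41 genes, against 12.6% of all genes tested. The calls came from a test of the difference itself (quasi-likelihood, edgeR, Benjamini-Hochberg adjusted). The log2 ratio of clone 1 over clone 2 was -0.59 for RRM2 (adjusted p = 2.1e-09, edgeR), -0.78 for CCNE2 (adjusted p = 3.9e-08, edgeR) and 0.78 for CDK1 (adjusted p = 1e-11, edgeR). In each gene all 3 libraries of one clone lay on the same side of all 3 of the other. Over the 22 alternatives the log2 ratio ranged from -0.62 to -0.47 for RRM2, from -0.84 to -0.68 for CCNE2 and from 0.74 to 0.82 for CDK1, and the call was lost once, for RRM2 in a test against a 1.5-fold change.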

How the results depend on the processing

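Of 246 results (41 genes in 6 comparisons), each under 22 alternatives, 4992 of 5412 values stayed on their side of the threshold, 366 lost the call, 52 gained it, and 2 turned from a called value to the other sign. Of the 4992, 127 changed sign without a call in either fit, in 35 results and by values of at most 0.0769 in size. The called value that turned was that of TOP2A in clone 1 against HMC-1.1, with 0.046 by limma on log2(FPKM + 1) (adjusted p = 0.47) and 0.0462 on log2(FPKM + 0.1) (adjusted p = 0.48), against -0.12 by edgeR. The counts of called genes depend most on a fold threshold. With a fold change over 1.5 required, in the order clone 1, clone 2 and HMC-1.1 against HMC-1.2, clone 1 against clone 2, clone 1 against HMC-1.1 and clone 2 against HMC-1.1, the counts were 3, 1, 1, 3, 0 and 1, and with glmTreat against 1.5-fold 2, 1, 1, 2, 0 and 1, since most changes are smaller. Over all genes glmTreat called 1932, 1612, 1618, 837, 9 and 552 in the same order. In clone 1 against HMC-1.1 both limma fits called 11 of the 41 genes in place of 23. Over all genes they called 1529 with log2(FPKM + 1) and 1508 with log2(FPKM + 0.1), against 1415 higher and 1568 lower by edgeR. Without 1 library the counts ranged from 33 to 35, 19 to 21, 21 to 23, 29 to 32, 16 to 22 and 13 to 17.

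The difference of the sets (S phase minus G2/M), in the same order, was -0.02, 0.09, -0.02, -0.10, 0.00 and 0.10, and ranged without 1 library from -0.03 to 0.00, 0.08 to 0.09, -0.03 to 0.00, -0.11 to -0.08, -0.02 to 0.02 and 0.08 to 0.12. With the median over genes it was 0.0339 for clone 2 against HMC-1.2, -0.043 for clone 1 against clone 2 and 0.0267 for clone 2 against HMC-1.1. Without CDK1 these were 0.0355, -0.0506 and 0.0556. Without CDK1 and RRM2 they were 0.0554, -0.033 and 0.0448, with 0.0224 for clone 1 and 0.0106 for HMC-1.1 against HMC-1.2. Both omissions were chosen after the data were seen.

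Replicate numbers showed little pairing: of 18 pairs of libraries with the same number none correlated above 0.1 in their deviations from the group means (from -0.0369 to 0.0954). The median correlation was 0.0262 for pairs with the same number and -0.01185 for pairs with different numbers. With a replicate block the counts were 35, 21, 22, 32, 23 and 18, and the differences of the sets stayed at -0.02, 0.09, -0.02, -0.10, 0.00 and 0.10. A term for the resent libraries gave 35, 22, 21, 31, 18 and 15. No scaling moved the median of all genes by over 0.1, but many changes of the 41 genes are themselves small. In clone 1 against HMC-1.2 this median was 0.0379 with upper-quartile factors and 0.0595 by limma on log2(FPKM + 0.1), against 0.0137 in the main fit. The median SE of the 41 genes there was 0.0365. With upper-quartile factors 13 of the 246 results lost the call. Precision rests on 3 wells per group, and each clone is 1 clone.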
